A study of Mus musculus with 56 samples.

Results

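Heat shock proteins were followed here as 10 mouse genes listed by name, a list that sets no threshold on measured values but was drawn up with earlier results of these data known: Hspa1a, Hspa1b, Hspa8, Hsph1, Dnajb1, Hsp90aa1, Hspb1, Hspe1, Hspd1 and Hspa5. Array probes were tied to these genes through the RefSeq accession that each probe carries, and 1 probe was kept per gene, the brightest in the channel of the samples. A named probe was found for 9 of the 10 genes, out of 20018 genes with a named probe in all. No probe matched Hspa1b, so the text gives no value for it, and whether the Hspa1a probe also bound its transcripts was not tested.

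The animals were 19 male MutaMouse, a transgenic strain that carries a bacterial lacZ reporter for scoring mutations, aged about 14 weeks. They received, by gavage on each of 28 days, olive oil alone (D0) or olive oil with chrysene, a polycyclic aromatic hydrocarbon, at a daily dose of 17.5 (D1), 50 (D2) or 150 (D3) mg/kg body weight. Lung, liver and forestomach were taken 72 hours after the final dose, and the RNA of each sample (Cy5) was hybridised with a universal mouse reference RNA from 11 cell lines (Cy3) on a microarray. Groups D0, D1, D2 and D3 held 5, 5, 3 and 5 mice in lung, and 5, 5, 4 and 5 mice in both liver and forestomach, which gave 56 arrays. A mouse keeps its number in all 3 tissues, with mice 1 to 5 in D0, 6 to 10 in D1, 11, 12, 13 and 15 in D2 and 16 to 20 in D3. Every level below is a log2 ratio of sample over reference, so that 1 unit is a doubling, and every difference is between such levels.

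Heat shock proteins are molecular chaperones, which bind unfolded proteins and help them fold, refold or be degraded. When proteins unfold, as under heat, the transcription factor HSF1 is freed from its chaperones and forms trimers. These bind heat shock elements, inverted repeats of a short GAA unit in the promoters of its target genes. Stress in the endoplasmic reticulum acts through other sensors and raises a separate set of chaperones led by Hspa5, and the mitochondrial pair Hspe1 and Hspd1 serves protein folding inside that organelle.

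The sequences before the start sites are shown for the 5 genes whose probe values or near-identity the results turn on most. Each line gives 250 bases up to the annotated start, 5′ to 3′ on the gene's strand, from RefSeq on GRCm38.p6. Capitals mark the fixed letters of 2 facing heat shock element units, GAANNTTC or TTCNNGAA, each of which is its own reverse complement, so that a search of the printed strand covers both strands. The windows are chr17:34972157-34972406 on the minus strand for Hspa1a, chr17:34959239-34959488 on the minus strand for Hspa1b, chr5:149636316-149636565 on the minus strand for Hsph1, chr5:135887669-135887918 on the plus strand for Hspb1 and chr1:55087898-55088147 on the plus strand for Hspe1.
Hspa1a: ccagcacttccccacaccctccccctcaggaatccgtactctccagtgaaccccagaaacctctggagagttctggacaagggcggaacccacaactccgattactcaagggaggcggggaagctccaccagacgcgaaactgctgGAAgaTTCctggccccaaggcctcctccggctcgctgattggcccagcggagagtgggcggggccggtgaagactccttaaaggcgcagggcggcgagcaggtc
Hspa1b: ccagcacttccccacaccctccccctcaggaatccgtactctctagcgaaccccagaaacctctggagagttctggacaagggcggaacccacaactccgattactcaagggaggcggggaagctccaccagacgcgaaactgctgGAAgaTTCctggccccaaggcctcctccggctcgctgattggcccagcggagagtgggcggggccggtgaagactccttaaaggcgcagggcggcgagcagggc
Hsph1: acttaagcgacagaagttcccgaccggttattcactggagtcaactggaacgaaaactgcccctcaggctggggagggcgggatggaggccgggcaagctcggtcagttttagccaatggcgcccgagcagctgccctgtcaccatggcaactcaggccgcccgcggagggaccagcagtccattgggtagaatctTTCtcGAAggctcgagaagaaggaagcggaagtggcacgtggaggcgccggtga
Hspb1: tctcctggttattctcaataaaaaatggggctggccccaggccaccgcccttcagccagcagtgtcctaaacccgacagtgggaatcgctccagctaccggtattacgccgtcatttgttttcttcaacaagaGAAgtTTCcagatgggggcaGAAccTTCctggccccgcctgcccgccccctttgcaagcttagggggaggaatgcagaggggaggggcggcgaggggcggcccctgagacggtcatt
Hspe1: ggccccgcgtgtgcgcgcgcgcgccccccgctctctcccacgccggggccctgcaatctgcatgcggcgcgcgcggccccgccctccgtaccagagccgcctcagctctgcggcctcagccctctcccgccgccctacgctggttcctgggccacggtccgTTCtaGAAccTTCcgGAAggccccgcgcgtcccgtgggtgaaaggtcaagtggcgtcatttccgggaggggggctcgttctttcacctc
The windows of Hspa1a and Hspa1b were identical at 247 of 250 bases (98.8%), and both held their match 104 bases before the start. Hsph1 had its match 54 bases before the start, and Hspb1 had matches at 117 and 97 bases. In Hspe1 the matches at 89, 84 and 79 bases run into each other, so that 4 units follow in turn. They hold 2 overlapping copies of a longer motif of 3 units, in which a further GAA or TTC faces the last one across 2 bases. Hspd1 lies head to head with Hspe1 on the minus strand (chr1:55087933-55088182), and this window holds the same stretch read from the other side.

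Entries were found for 8 of the 10 genes, with 11 windows, since Hsph1, Dnajb1 and Hspd1 each have 2 annotated starts. The shorter motif was in 7 of the 11 windows, those of Hspa1a, Hspa1b, Hsph1 (both), Hspb1, Hspe1 and Hspd1 (1 of 2), and in 12.8% of all 32851 windows of that length. The longer one was in 2, that of Hspe1 and the same Hspd1 window, and in 0.466% of all windows. The other Hspd1 window (chr1:55088244-55088493) held neither. With the 50 bases after the start added, the longer motif was in 4 of the 11 windows, both of Hsph1 being the further ones, and in 0.603% of all windows. The windows of Dnajb1 and Hspa5 did not hold these letters. The later of the Dnajb1 windows (chr8:83608298-83608547) lies downstream of the other start, within the gene. A match, or the lack of one, is a description of the sequence for these letters only and not a measured binding site. Hspa8 and Hsp90aa1 had no entry.

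Marker genes of each tissue were high in it. The mean log2 ratio of the 6 lung markers, which included the surfactant gene Sftpc, lay between 6.31 and 6.95 on the lung arrays, and that of the 6 liver markers between 6.98 and 7.28 on the liver arrays. The 6 squamous markers lay between 4.19 and 6.94 on the forestomach arrays, and the 6 measured glandular stomach markers there ran from 0.43 to 7.19 (0.78 to 7.01 in the vehicle mice), so that glandular tissue markers differed widely between these samples. The forestomach arrays were the dimmest. The share of probes well above background was 49.0% to 56.7% in lung, 34.5% to 46.4% in liver and 18.9% to 51.7% in forestomach, where it ran from 40.4% to 51.7% on slide 1, 24.6% to 34.9% on slide 2 and 18.9% to 30.1% on slide 3. The position of an array on its slide followed its dose on 50 of the 56 arrays, so that dose and position can hardly be told apart. The Hspa1a probe was well above background on all 18 lung, 12 of 19 liver and 17 of 19 forestomach arrays, and the other 8 probes were so on every array.

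Hspa1a, the stress-inducible cytosolic HSP70, was set apart in lung by a single mouse of the vehicle group and a single mouse of D1. In D0 its log2 ratios were 0.35, 3.103, 0.51, 0.21 and −0.15 in mice 1 to 5. In D1 they were −0.19, 2.74, −0.32, −0.26 and −0.20 in mice 6 to 10. Mouse 2 and mouse 7 stood far above the other 4 mice of their groups, by 2.87 and 2.99 on the log2 scale. The D2 values were −0.42, −0.26 and −0.17, and the D3 values were −0.48, 0.37, −0.33, 1.00 and −0.19. No D2 or D3 mouse came near the levels of mice 2 and 7.

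The same 2 mice stood apart in liver. Hspa1a was at −0.06, 1.23, 0.14, −0.02 and 0.09 in D0 and at −0.03, 2.48, 0.07, −0.06 and −0.30 in D1. All other liver arrays lay between −0.59 and 0.14, many of them not well above background (1 of 4 arrays of D2 and 2 of 5 of D3 were). In forestomach Hspa1a varied among all mice, with 1.82, 4.10, 0.32, 0.34 and 3.26 in D0 and 3.54, 3.67, 0.95, 1.30 and 2.27 in D1. There the spread moved with the slide, as the 7 arrays of slide 1, the brightest, lay between 1.94 and 4.10 and the 7 arrays of slide 3 between 0.32 and 1.30. On slide 2 mouse 7 was at 3.67, the vehicle array at 1.82 and the 2 D3 arrays at a mean of 1.88. The part of the slide in these levels was not tested.

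**Figure D1:**
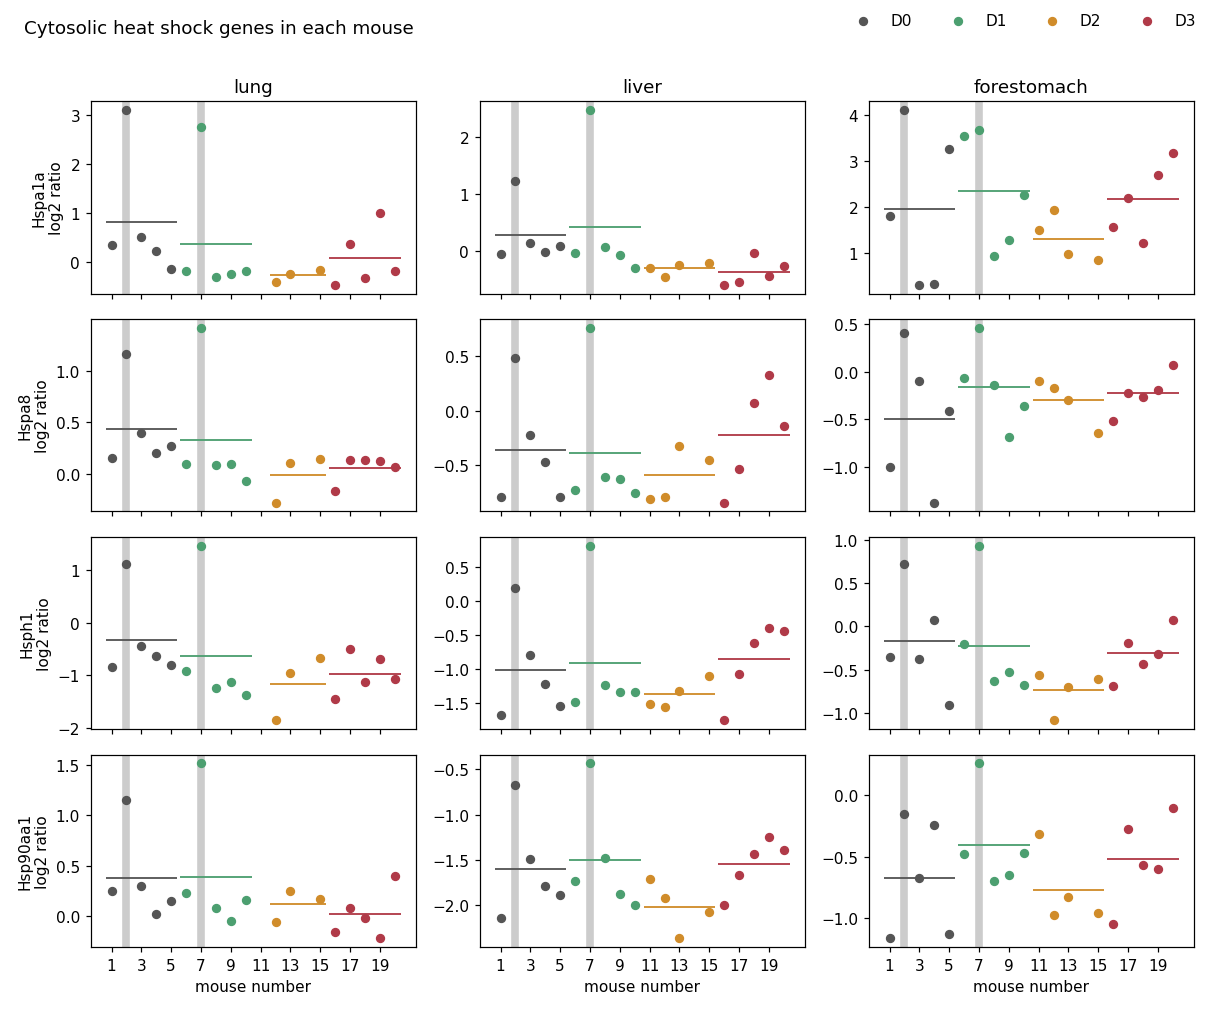
Log2 ratio over the reference (vertical axis) of Hspa1a, Hspa8, Hsph1 and Hsp90aa1 (rows) in lung, liver and forestomach (columns), with 1 point per mouse in order of mouse number and dose group, coloured by dose. Horizontal lines are group means and grey bars mark mice 2 and 7, which are highest in their groups in lung and liver for all 4 genes. The vertical scale differs between panels.

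Hspa8, the constitutive cytosolic HSP70, gave the same picture at a smaller scale. Its lung values were 0.16, 1.16, 0.40, 0.21 and 0.27 in D0 and 0.10, 1.41, 0.09, 0.10 and −0.06 in D1. In liver mice 2 and 7 were at 0.48 and 0.76, against −0.79 to −0.22 in the other D0 mice and −0.75 to −0.61 in the other D1 mice. Hsph1, the HSP110 that resets HSP70 by nucleotide exchange, was at 1.11 in mouse 2 and 1.46 in mouse 7 in lung, where the others of their groups lay between −0.85 and −0.44 and between −1.38 and −0.92. Hsph1 was also the member with the clearest separation of both mice in forestomach, at 0.72 and 0.93 against −0.90 to 0.07 and −0.68 to −0.21.

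Dnajb1, the J protein that delivers clients to HSP70, separated these mice least among the cytosolic members in lung. It was at 0.12 in mouse 2 and 0.29 in mouse 7, against −0.36 to −0.08 and −0.32 to −0.18 in the other mice, and in liver at −0.18 and −0.26 against −1.35 to −0.86 and −1.43 to −1.17. Hsp90aa1, the inducible cytosolic HSP90, was at 1.15 and 1.51 in lung against 0.02 to 0.30 and −0.05 to 0.23, and at −0.67 and −0.43 in liver against −2.14 to −1.49 and −1.99 to −1.48. No other mouse of these groups reached them in either tissue.

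Hspb1, a small heat shock protein that holds unfolded proteins without ATP, was at 2.83 and 3.28 in the lungs of mice 2 and 7, against 0.99 to 1.60 and 1.45 to 1.74 in the others. In forestomach, where Hspb1 was highest, neither mouse was above its group, and mouse 7 was the lowest of D1 at 3.12 against 3.26 to 3.92. Hspa5, the HSP70 of the endoplasmic reticulum, was at 0.63 and 1.01 in lung against −0.03 to 0.10 and −0.17 to 0.16. Its liver values were 1.58 and 2.10 against 0.14 to 0.68 and 0.14 to 0.76.

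The mitochondrial members were the exception in liver. Hspd1, the HSP60 chaperonin, was at −0.50 and −0.32 in the lungs of mice 2 and 7, above the −1.42 to −1.04 and −1.48 to −1.28 of the others. In liver mouse 2 was within its group at 0.42 (0.39 to 0.58 in the others), and mouse 7 exceeded its group by little, at 0.64 against 0.38 to 0.62. Hspe1, the HSP10 lid of that chaperonin, was highest in both mice in lung (−0.83 and −0.48) and in neither in liver (−0.20 and −0.09).

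Counted over the 9 members, mouse 2 was above all others of its group for 9 in lung, 7 in liver and 5 in forestomach, and mouse 7 for 9, 8 and 5. The median difference from the mean of the others was 0.90, 1.05 and 0.64 for mouse 2 and 1.35, 1.34 and 0.68 for mouse 7. Over all probes tested, mouse 2 was highest in 22.8%, 22.1% and 18.1% of lung, liver and forestomach probes, and mouse 7 in 21.9%, 21.5% and 15.3%. Both mice were noticed for these values, so the counts describe these animals and carry no test. In lung the count was 9 of 9 for both under every normalisation tried, but with each array centred on its median in place of loess it was 4 of 9 in liver for mouse 2 and, in forestomach, 6 of 9 for mouse 2 and 0 of 9 for mouse 7. The lung arrays of both mice were on slide 1 together with mice 1, 6 and 17, whereas their liver arrays were on slides 2 and 1 and their forestomach arrays on slides 1 and 2.

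**Figure D2:**
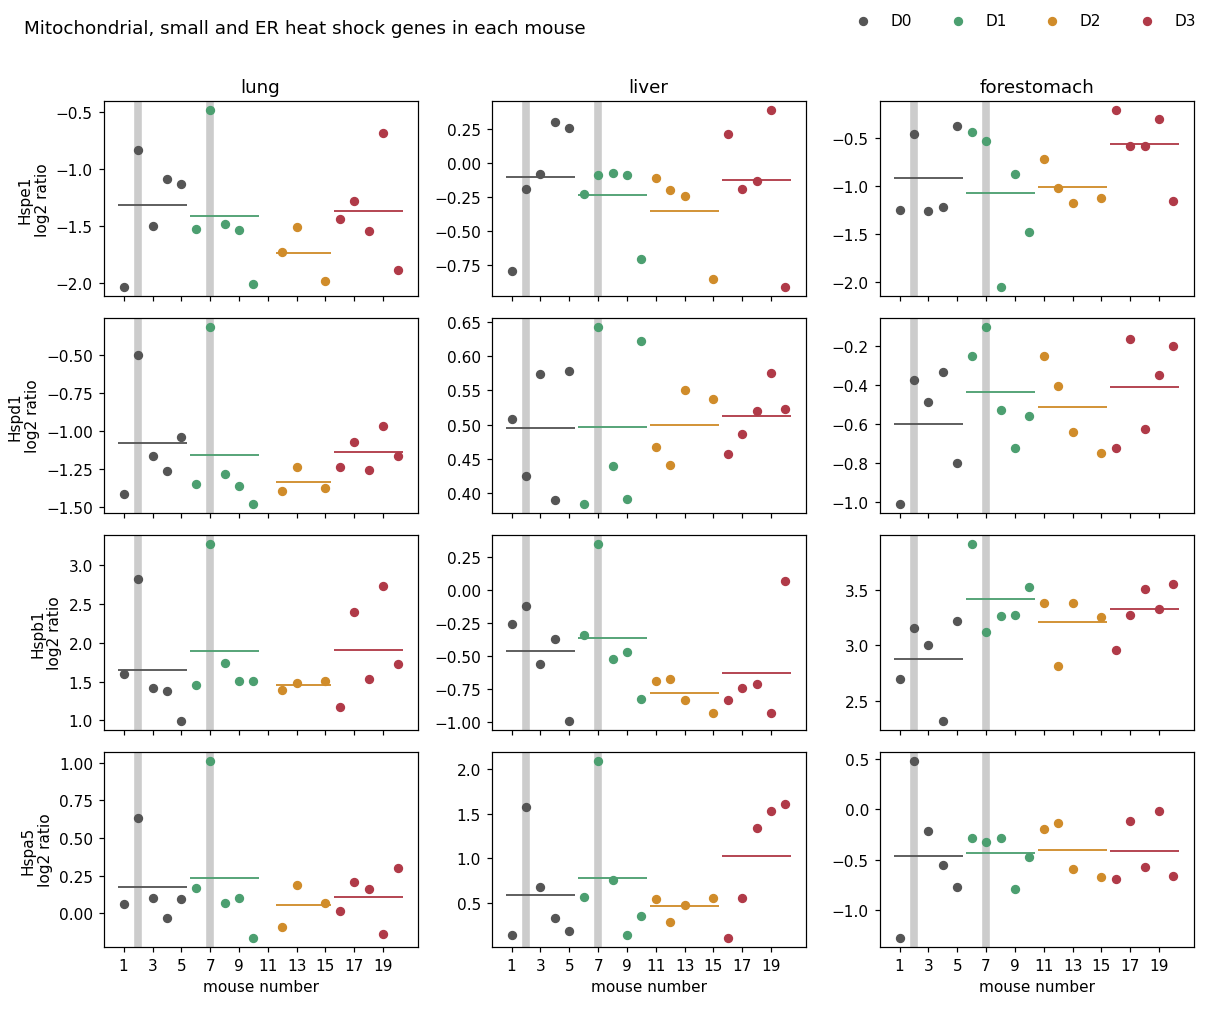
Log2 ratio over the reference (vertical axis) of Hspe1, Hspd1, Hspb1 and Hspa5 (rows) in the 3 tissues (columns), with 1 point per mouse, coloured by dose. Horizontal lines are group means and grey bars mark mice 2 and 7, whose liver points lie inside the range of their groups for Hspe1 and above the other 4 mice of their groups for Hspa5. The vertical scale differs between panels.

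Other genes of the chaperone system were taken from lists and described in the same mice, with examples picked after their values were seen. Of the 9 genes for HSP90 and its co-chaperones, mouse 2 was highest of its group in 8 in lung and 7 in liver, and mouse 7 in 7 and 8. Stip1, which links HSP70 to HSP90, was at −0.81 and −0.39 in lung against −1.89 to −1.54 and −1.99 to −1.70, and Chordc1, an HSP90 co-chaperone, was at 1.03 and 1.37 in liver against −0.06 to 0.50 and −0.05 to 0.24. Of the 14 J proteins and nucleotide exchange factors, mouse 2 was highest in 6 in lung and 8 in liver, and mouse 7 in 9 and 6. Bag3, an exchange factor of HSP70 from that list, was at 0.80 and 1.34 in liver against −0.58 to −0.08 and −0.74 to −0.36.

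Endoplasmic reticulum chaperones and stress genes followed in part. Mouse 2 was highest in 10 of 17 in lung and 14 of 18 in liver, and mouse 7 in 15 of 17 and 13 of 18. Creld2, a resident protein of that organelle, was at 0.28 and 1.24 in liver against −1.83 to −1.18 and −1.63 to −1.09. By contrast the 8 other mitochondrial chaperones and proteases had mouse 2 highest in 4 in lung and 1 in liver, and mouse 7 in 3 and 0. Of the other small heat shock proteins each mouse was highest in 1 of 7 in lung and 2 of 5 in liver. Subunits of the TRiC chaperonin had mouse 2 highest in 6 of 8 in lung and 5 of 8 in liver, and mouse 7 in 7 and 1. Of the other cytosolic HSP70 and HSP110 genes mouse 2 was highest in 3 of 7 in lung and 4 of 6 in liver, and mouse 7 in 5 and 4. Of the 4 genes for HSF factors and their inhibitors mouse 2 was highest in 2 and 1, and mouse 7 in 2 and 3.

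The cold-inducible RNA-binding gene Cirbp went the other way. It was at −0.57 and −0.91 in the lungs of mice 2 and 7 against 0.38 to 0.50 and 0.33 to 0.74 in the others. In liver it was at −1.49 and −1.79 against −0.95 to −0.64 and −0.85 to −0.61, and in forestomach at −1.18 and −1.10 against −0.36 to 0.02 and −0.52 to −0.01. Mice 2 and 7 were thus the lowest of their groups in all 3 tissues, except that mouse 2 was not so in forestomach with median centring. Rbm3, the other cold-inducible gene looked at, was lowest in both mice in lung, at −1.88 and −2.13, and lay within the range of the other mice in liver and forestomach.

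Markers of other cell types and tissues are given for the same mice. In lung mouse 2 was highest in 0 of 4 skeletal muscle and 4 of 6 leukocyte markers, and mouse 7 in 2 of 4 and 3 of 6. Genes with circadian output were lowest in mouse 2 for 7 of 8 and in mouse 7 for 5 of 8 in lung, where the mice were lowest in 20.8% and 20.2% of all probes. In liver these counts were 1 of 8 and 3 of 8 (22.2% and 21.3% of probes), and in forestomach 4 of 7 and 0 of 7 (23.2% and 14.1%). In forestomach mouse 2 was highest in 6 of 6 glandular stomach and 4 of 4 adipocyte markers, while mouse 7 was highest in 0 of 6 and 0 of 4. The means of the liver (2.49), pancreatic acinar (1.62), skin keratinocyte (6.88) and lung (0.82) markers were also highest of the vehicle forestomachs in mouse 2. In liver mouse 2 was highest in 1 of 4 leukocyte and 0 of 3 erythroid markers, and mouse 7 in 0 of 4 and 0 of 3. The mean of the squamous markers there was highest of D0 in mouse 2 (0.08) and of D1 in mouse 7 (0.16). That of the lung markers was highest of D1 in mouse 7 (−0.21). Over 19 liver arrays the members correlated with the lung markers at a median of 0.585 (−0.01 to 0.72), but 4 of those 6 markers were never above background there. The part of these in the member values was not tested.

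The dose question is whether chrysene shifted the members against vehicle. It was put to a moderated linear model (limma) over all probes of a tissue, and a probe was called where its p, adjusted by Benjamini and Hochberg's method, did not exceed 0.05 and its fold was 1.5 or more. In lung 0 of 9 members were called at D1, D2 or D3 or for a trend over the dose steps. Over all 31448 probes 0% were called at D1, 0% at D2, 0.127% at D3 and 0.169% for the trend. At an unadjusted p of at most 0.05, again 0 of 9 members passed in any of these, where 5.88%, 6.12%, 16.2% and 17.3% of all probes did. Without mice 2 and 7, left out after the data were seen, Hspb1 had a trend of 0.51 (SE 0.23, unadjusted p = 0.036, adjusted p = 0.301, limma). The p-values measure the spread between the mice of a group.

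In liver 0 of 9 members were called in any dose comparison or for the trend, and 0% of the 24692 probes were. At an unadjusted p of at most 0.05, 0 members passed at D1, D2 and D3 (3.61%, 3.79% and 4.79% of probes), and 2 passed for the trend, where 5.43% of probes did. These were Hspa1a, with a fitted change from D0 to D3 of −0.79 (SE 0.36, adjusted p = 0.914), and Dnajb1, with −0.43 (SE 0.18, adjusted p = 0.899, limma). Leaving out mice 2 and 7 gave −0.43 (SE 0.097, unadjusted p = 0.000274, adjusted p = 0.511, limma) for Hspa1a and −0.20 (SE 0.098, unadjusted p = 0.051, adjusted p = 0.795) for Dnajb1. Hspa5 then had a liver trend of 0.66 (SE 0.24, unadjusted p = 0.0125, adjusted p = 0.666). For Hspa1a 1 of 4 D2 and 2 of 5 D3 arrays were well above background. In forestomach 0 of 9 members were called, against 0% of 27491 probes at D1, 0% at D2, 0.00728% at D3 and 0.04% for the trend. Unadjusted, Hspb1 alone passed at D1 (4.16% of probes) and at D3 (9.24%), and 0 members passed at D2 (7.53%) and for the trend (9.18%).

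In a few comparisons all arrays of a dosed group lay below all vehicle arrays. In lung this held for 0 of 9 members at D1, 2 at D2 (Hspa1a and Hspa8) and 1 at D3 (Hspa8), against 0.7%, 2.89% and 1.94% of all probes. In liver it held for 0, 1 (Hspa1a at D2) and 0 members, against 0.255%, 0.547% and 0.389%. In forestomach it held for 0 members at each dose, against 0.367%, 1.21% and 0.52%. With the smallest group of 3 mice and so few members these counts describe the arrays and are not a test.

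The highest dose is described member by member. For Hspa1a the D3 mean minus the D0 mean was −0.73 in lung (SE 0.60, adjusted p = 0.579, limma), −0.65 in liver (SE 0.38) and 0.20 in forestomach (SE 0.69). Without mice 2 and 7, a choice made after the data were seen, the same differences were −0.16, −0.41 and 0.74. In lung the difference was thus smaller once mouse 2 no longer entered the vehicle mean. With each mouse left out in turn the lung difference of Hspa1a ran from −0.97 to −0.16. Hsph1 went from −0.65 (SE 0.47) to −0.29 in lung and from 0.15 (SE 0.40) to 0.45 in liver when mice 2 and 7 were left out.

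Hspa8 had a lung difference of −0.37 (SE 0.24, adjusted p = 0.457), and Hsp90aa1 one of −0.36 (SE 0.25, adjusted p = 0.513). Without mice 2 and 7 these became −0.19 and −0.16. In forestomach the 2 genes had differences of 0.27 (SE 0.27) and 0.15 (SE 0.24), which are near or below their errors. With each mouse left out in turn these forestomach differences ran from 0.05 to 0.49 and from 0.03 to 0.29. Dnajb1 had its largest difference in liver, at −0.41 (SE 0.20, adjusted p = 1.00), where its D0 values were −1.03, −0.18, −0.98, −0.86 and −1.35 and its D3 values −1.48, −1.30, −1.28, −1.04 and −1.37. It was −0.24 without mice 2 and 7.

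Hspb1 in forestomach had the smallest adjusted p of any member at D3. Its D0 values were 2.69, 3.16, 3.00, 2.31 and 3.22, and its D3 values were 2.96, 3.28, 3.51, 3.32 and 3.55. The groups overlapped, and the difference was 0.45 (SE 0.19, adjusted p = 0.450). At D1 it was 0.54 (SE 0.19, adjusted p = 1.00) and at D2 0.33 (SE 0.20). In lung Hspb1 had a D3 difference of 0.27 (SE 0.37), with mice 17 and 19 at 2.40 and 2.74 and the other 3 at 1.17 to 1.73.

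Those 2 lung samples also carried skeletal muscle markers at a mean log2 ratio of 5.37 and 5.59, against −0.81 to 0.39 in all other lungs, and skin keratinocyte markers at 3.73 and 4.01 against −0.31 to −0.11. Without them the lung difference of Hspb1 was −0.17. Hspa1a was also highest of its group in mouse 19, at 1.00. In bulk samples such as these, a different mix of cells and a different amount of RNA per cell cannot be told apart. The part of these markers in the member values was not tested.

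Hspa5 had the highest D3 difference of any member in liver, at 0.45 (SE 0.35, adjusted p = 1.00). The D0 values were 0.14, 1.58, 0.68, 0.33 and 0.18, and the D3 values were 0.10, 0.55, 1.34, 1.53 and 1.62. Mice 18, 19 and 20 were close to mouse 2, and mice 16 and 17 were near the other vehicle mice. The mean of the list of endoplasmic reticulum genes was 0.84 or less in these 3 mice (0.82, 0.78 and 0.84), 0.59 and 0.49 in mice 16 and 17, 1.03 in mouse 2 and 1.15 in mouse 7. Within the 3 slides the Hspa5 difference ran from −1.26 to 1.46, and without mice 2 and 7 it was 0.70.

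Hspe1 and Hspd1 hardly differed at D3 in lung (−0.05, SE 0.27, and −0.06, SE 0.19) and liver (−0.02, SE 0.23, and 0.02, SE 0.06). In forestomach they had differences of 0.35 (SE 0.28) and 0.19 (SE 0.16). Over the 9 members the median D3 difference was −0.14 in lung, 0.02 in liver and 0.19 in forestomach, beside −0.03, −0.01 and −0.00 over all probes tested. With median centring the median over all probes was 0.11, −0.05 and 0.18 in the 3 tissues.

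**Figure D3:**
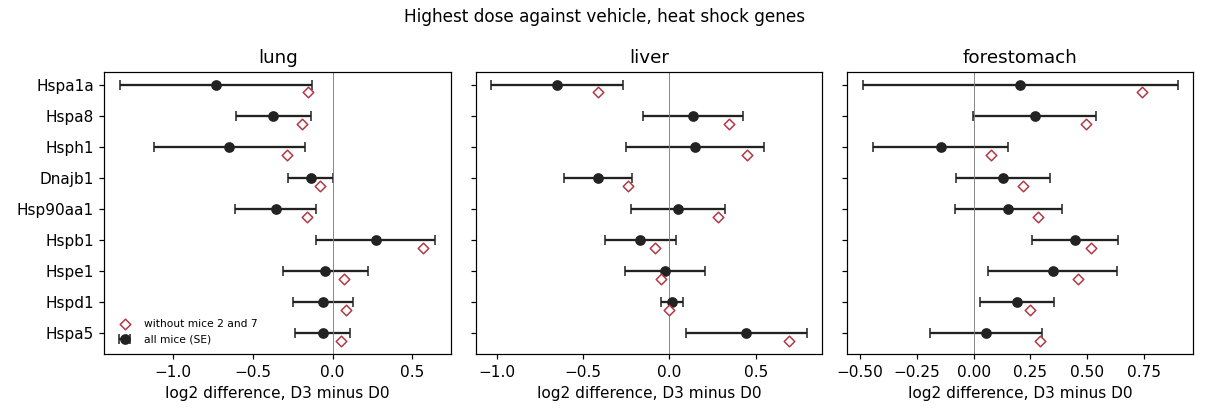
D3 mean minus D0 mean in log2 units (horizontal axis) for each of the 9 members in lung, liver and forestomach, with bars of 1 standard error from the limma fit. Diamonds give the same difference without mice 2 and 7, which is closer to 0 in lung for Hspa1a, Hspa8, Hsph1 and Hsp90aa1.

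Whether the D3 difference itself differed between tissues was tested in a fit of all 56 arrays. For liver minus lung 0 of 9 members were called, as were 0% of all 33629 probes, and 0 passed at an unadjusted p of at most 0.05, where 5.24% of probes did. For forestomach minus lung 0 members were called or passed unadjusted, against 0.651% and 12.5% of probes. For forestomach minus liver the members again gave 0 and 0, against 0.0595% and 9.1%. The member with the smallest unadjusted p was Dnajb1 between forestomach and liver, with a difference of differences of 0.54 (SE 0.27, adjusted p = 0.557).

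The 8 lists of other chaperone and stress genes held 78 genes, of which 74, 72 and 72 were tested in lung, liver and forestomach. At D3 0 of them were called in any tissue, and at an unadjusted p of at most 0.05 the counts higher and lower were 4 and 5 in lung, 2 and 1 in liver and 6 and 5 in forestomach, where 16.2%, 4.79% and 9.24% of all probes passed in either direction. The smallest p in lung was for Dnaja1, a J protein that works with HSP70. Its D0 values were 0.21, 1.43, 0.34, 0.17 and 0.10 and its D3 values −0.52, −0.54, −0.22, −0.33 and −0.32. All D3 mice lay below all D0 mice, but the difference of −0.84 (SE 0.28) had an adjusted p of 0.186.

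Hspa1l, a testis-enriched HSP70, had a lung difference of 0.50 (SE 0.17, adjusted p = 0.188), with mice 17 and 19 at 0.96 and 0.98 and the other 3 D3 mice at −0.06 to 0.12. In liver the leading genes were Hspa4, an HSP110, with 0.25 (SE 0.09, adjusted p = 0.964), and Dnaja3, a mitochondrial J protein, with −0.19 (SE 0.08, adjusted p = 0.978). In forestomach Hsbp1, a small protein that binds HSF1, had a difference of −0.51 (SE 0.13, adjusted p = 0.163). Atf4, a transcription factor of the integrated stress response, had 0.87 there (SE 0.24, adjusted p = 0.202). Its D3 difference was the one of these genes that differed between tissues, at 1.03 higher in forestomach than in lung (SE 0.24, adjusted p = 0.026).

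Levels in the vehicle mice were then compared between tissues, which asks where each member stands without chrysene. Of the 9 members, 2 were called higher and 4 lower in liver than in lung, while 20.6% of all probes were called higher and 24.2% lower. In forestomach 1 was higher and 3 were lower than in lung, beside 17.7% and 18.7% of probes. Against liver 4 were higher and 3 lower in forestomach, beside 19.3% and 16.7%. These shares are read only as counts, because each rests on 9 genes.

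Hspb1 had the widest range of tissue means of any member. Its vehicle levels were 2.69, 3.16, 3.00, 2.31 and 3.22 in forestomach, 1.60, 2.83, 1.42, 1.38 and 0.99 in lung and −0.26, −0.12, −0.56, −0.37 and −0.996 in liver. The liver values lay below all others. The level in forestomach was 10.1-fold that in liver (log2 difference 3.34, SE 0.28, adjusted p = 1.28e-14) and 2.35-fold that in lung (1.23, SE 0.28, adjusted p = 2.05e-04). With each array centred on its median the difference from liver was 1.75 (adjusted p = 0.080) and no longer called, and that from lung was −0.74.

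Among the cytosolic members the order of the tissues differed. Hsp90aa1 was highest in lung (0.37 ± 0.45, SD, n = 5), then forestomach (−0.67 ± 0.47) and liver (−1.60 ± 0.57), and each step was called, with liver 3.91-fold below lung. Hspa8 was higher in lung (0.44 ± 0.41) than in liver (−0.36 ± 0.53) and forestomach (−0.50 ± 0.71), which did not differ beyond their spread (−0.14, SE 0.28). Dnajb1 was lower in liver (−0.88 ± 0.43) than in lung (−0.12 ± 0.17) and forestomach (0.36 ± 0.51), whose difference of 0.47 passed the p limit but not the fold limit, and was called without mouse 4 (0.63, adjusted p = 0.011). Hspa1a was higher in forestomach (1.97 ± 1.71) than in liver (0.28 ± 0.54), with lung between them (0.80 ± 1.31) and called against neither. The call was lost without mouse 5 (adjusted p = 0.100) and with only the vehicle arrays of these tissues (adjusted p = 0.069), and slide and level moved together in forestomach as given above.

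Hsph1 was called in no pair of tissues, at −0.17 ± 0.60 in forestomach, −0.32 ± 0.82 in lung and −1.01 ± 0.75 in liver. The mitochondrial pair was highest in liver. Hspd1 had 0.49 ± 0.09 there against −0.60 ± 0.29 in forestomach and −1.08 ± 0.35 in lung, a 2.98-fold difference from lung (log2 1.57, SE 0.15, adjusted p = 5.46e-13). Hspe1 had −0.11 ± 0.44, −0.92 ± 0.45 and −1.32 ± 0.47, with liver 2.32-fold above lung, and forestomach and lung did not differ beyond their spread (0.40, SE 0.27). With the mean of all probes of the gene in place of the brightest, Hspe1 was called higher in forestomach than in lung (0.85, adjusted p = 0.00214). With median centring neither gene was called between liver and lung, where the differences were 0.77 for Hspd1 (adjusted p = 0.333) and 0.57 for Hspe1 (adjusted p = 0.506). Hspa5 had 0.58 ± 0.60 in liver, 0.17 ± 0.26 in lung and −0.46 ± 0.65 in forestomach. It was lower in forestomach than in liver (−1.05, SE 0.28, adjusted p = 0.00147), and its call against lung, at an adjusted p of 0.04996, was at the edge of the limit. In forestomach the mean of the glandular stomach markers correlated at 0.54 with Hspa5 and 0.42 with Hspa8 over 19 arrays, and its part in these levels was not tested.

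With the mouse as a replicate block, 7, 5 and 8 members were called in place of 6, 4 and 7, which added Hsph1 in liver against lung (adjusted p = 0.000895) and in forestomach against liver (0.00011) and Hspa1a in forestomach against lung (0.012). The same 3 were called when mouse 7, itself no vehicle mouse, was left out of the shared spread (adjusted p = 0.042, 0.016 and 0.047), and without mice 2 and 7 (0.020, 0.00109 and 0.016). With median centring the median difference over all probes was −0.59 for liver against lung and −0.89 for forestomach against lung (−0.019 and −0.0013 in the authors' table), and 2, 7 and 3 members were called. It turned the directions of Hspb1, Hspe1, Hspd1, Dnajb1 and Hsph1 in forestomach against lung, those of Hsph1, Dnajb1 and Hsp90aa1 against liver and that of Hspa5 in liver against lung. It also ended the calls of Hspa8 (−1.38, adjusted p = 0.119) and Dnajb1 (−1.41, adjusted p = 0.071) in liver against lung and of Hspa1a in forestomach against liver (1.32, adjusted p = 0.143).

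**Figure D4:**
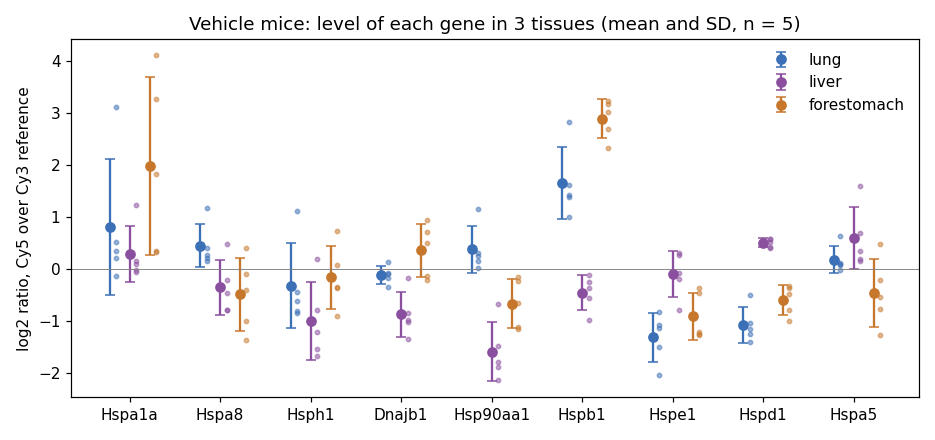
Log2 ratio over the reference (vertical axis) of the 9 members in the vehicle mice of lung, liver and forestomach, as mean and SD over 5 mice with a small point for each mouse. Hspb1 is highest in forestomach and lowest in liver, and Hspe1 and Hspd1 are highest in liver.

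The lists of other genes set these levels in context. All 8 mitochondrial chaperones and proteases were called higher in liver than in lung (median 1.52), among them Clpx, a protease subunit, at 3.04, Trap1, the mitochondrial HSP90, at 1.90 and Hspa9, the mitochondrial HSP70, at 1.38, and 6 of 8 were called lower in forestomach than in liver. Relative to the median of all probes, all 8 stayed higher in liver than in lung under every normalisation, while with median centring 1 of the 8 was below 0. Of 18 endoplasmic reticulum genes, 10 were higher and 0 lower in liver than in lung, with Sdf2l1 at 2.52 and Pdia4, a disulfide isomerase, at 1.94. In forestomach 13 of 18 were lower and 0 higher than in liver, with Hsp90b1, the HSP90 of that organelle, at −1.83. With median centring 10 of the 18 had a value below 0 in liver against lung.

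Small heat shock proteins other than Hspb1 were split. Cryab, a crystallin with chaperone activity, had a log2 difference of −3.80 for liver minus lung and of 3.52 for forestomach minus liver, and its neighbour Hspb2 gave −2.73 and 3.21. Hspb6 and Hspb8 were instead higher in liver than in lung, at 1.23 and 1.34. Subunits of TRiC, the cytosolic chaperonin, were called higher in forestomach than in liver for 5 of 8, led by Cct7 at 1.05, but all 8 were below 0 with median centring. Over the 8 lists, 26 of 75 genes were higher and 16 lower in liver than in lung, 19 and 13 in forestomach against lung and 16 and 25 in forestomach against liver. Over all probes the shares called higher and lower were 20.6% and 24.2%, 17.7% and 18.7%, and 19.3% and 16.7%.

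Members were compared in pairs within a tissue. Over the 36 pairs of members, the median correlation of their deviations from the dose-group means was 0.83 in lung (0.37 to 0.98, 18 arrays), 0.60 in liver (−0.33 to 0.97) and 0.39 in forestomach (−0.19 to 0.86, 19 arrays each). It exceeded 0.5 for 33, 21 and 11 pairs. Without mice 2 and 7 the medians were 0.36, 0.25 and 0.11. Members of a pair share arrays, so these values are given as a description.

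The genes most like Hspa1a, by the correlation of deviations from the dose-group means, were Cacybp (0.96), Stip1 (0.95) and Fkbp4 (0.95) among 14732 genes in lung, all 3 from the list of HSP90 co-chaperones. In liver they were Bag3 (0.93), Tysnd1 (0.93) and Chordc1 (0.92) among 12580 genes. Cirbp was the most opposed in lung, at −0.95, and among the 3 most opposed in liver, at −0.87. In forestomach they were Tppp3 (0.94), Flvcr2 (0.92) and Gml (0.91) among 14055 genes, none of them from the lists, and over the 19 arrays Hspa1a correlated there at 0.81 with the mean of the erythroid markers, 0.80 with the squamous, 0.72 with the skin keratinocyte, 0.66 with the lung and −0.67 with the leukocyte markers. The part of these in the Hspa1a level was not tested. Without mice 2 and 7 the leading genes in lung were Kcnj12 (0.94), Cars (0.94) and Fabp6 (0.93). The lungs of mice 17 and 19, with skeletal muscle markers at 5.37 and 5.59, were among these 16 arrays, and their part was not tested. In liver, where the Hspa1a probe was well above background on 12 of 19 arrays, no leading genes are named for this setting. Without mice 2 and 7 Cirbp had −0.74 in lung and 0.05 in liver. Stip1 then had 0.80 in lung, and Bag3 and Chordc1 had 0.49 and 0.66 in liver.

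Because a mouse gave all 3 tissues, deviations from the dose-group mean were compared between tissues for 9 members and 3 pairs of tissues, 27 relations with unadjusted permutation p-values of 100000 resamples. As mice 2 and 7 lie apart, the relation is given without them first. Between lung and liver Hspa8 then had r = 0.67 over 16 mice (Spearman's rho 0.64, two-sided permutation p = 0.00432), and Hspa1a had −0.18, Hsp90aa1 0.02 and Hspa5 0.14. With all 18 mice the same genes had 0.90, 0.85, 0.80 and 0.74, and for Hspa1a, Hsp90aa1 and Hspa5 the relation did not hold without mice 2 and 7. Leaving out the same 2 mice but keeping the group means that include them gave 0.41, 0.27 and 0.31 for these 3 genes. Within slides the 4 values were 0.39, 0.31, 0.43 and 0.34. Over the 9 members the median r between lung and liver was 0.74 with all mice and 0.18 without mice 2 and 7, beside 0.09 in both cases over all probes measured in both tissues.

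For liver with forestomach the medians over the members were 0.47 with all mice and 0.16 without mice 2 and 7, and for lung with forestomach 0.55 and 0.25. With all mice Hsph1 had the highest of these values, at 0.84 and 0.89. When mice 2 and 7 were left out it had 0.42 and 0.57, and for liver with forestomach Hsp90aa1 (0.47) and Hspe1 (0.46) then lay above it. Within slides Hsph1 had 0.11 and 0.23.

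**Figure D5:**
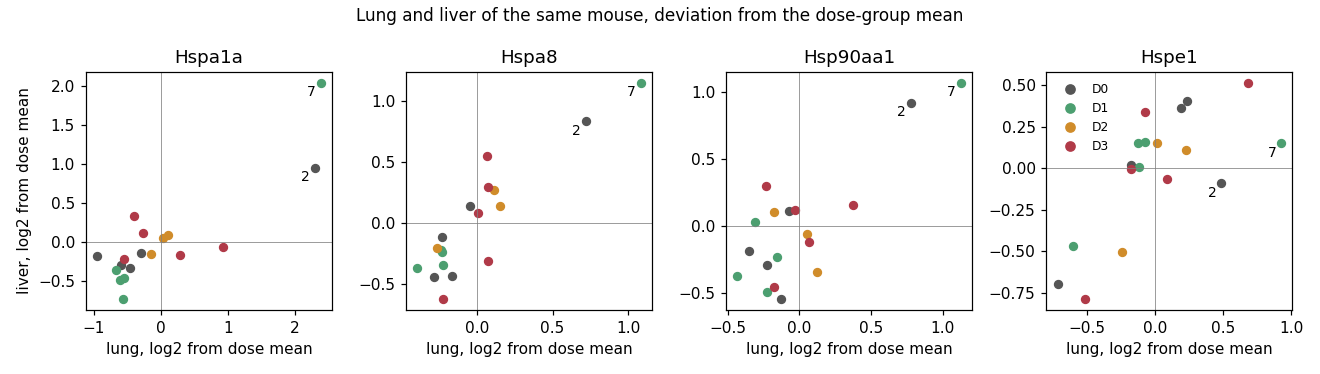
Deviation from the dose-group mean in liver (vertical axis) against that in lung (horizontal axis), both in log2 units, for Hspa1a, Hspa8, Hsp90aa1 and Hspe1, with 1 point per mouse and mice 2 and 7 marked. For Hspa1a both marked mice carry the relation, and for Hspe1 the other mice also lie along a line.

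Hspe1 kept its relation between lung and liver when mice 2 and 7 were left out. Without mice 2 and 7 its r was 0.90 over 16 mice (rho 0.83, permutation p = 1e-05, the smallest the resamples can give), the highest of the 27 relations, and with all 18 mice it was 0.70. Leaving out mice 7 and 19, the farthest from the median in lung, gave 0.74, and within slides it was 0.62. The 90th percentile over all probes without mice 2 and 7 was 0.49. Hspd1, whose start lies beside that of Hspe1, had 0.18 over the same 16 mice.

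The Hspe1 values show which mice this was. In lung mice 1, 10, 15 and 20 had the lowest 4 levels, at −2.04, −2.01, −1.98 and −1.88, against −1.72 to −0.48 in all others. In liver the same 4 were again the lowest, at −0.80, −0.70, −0.86 and −0.92, with a gap to the −0.24 to 0.39 of the others. In forestomach they did not stand apart with this probe, at places 4, 2, 8 and 7 from the lowest, and mouse 8 was the lowest there at −2.06. These mice come from D0, D1, D2 and D3, with 1 in each group, and they were noticed for these values, so no test is given for them.

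A second probe for Hspe1 put the same 4 mice lowest in both tissues. It gave −2.41, −2.46, −2.52 and −2.33 in lung against −2.01 to −0.70, and −1.01, −0.89, −1.14 and −1.13 in liver against −0.42 to 0.44. In forestomach it put them at places 4, 1, 5 and 2. The 2 probes correlated at 0.98 in lung, 0.99 in liver and 0.81 in forestomach. With mice 2 and 7 left out the second probe had r = 0.95 for lung with liver, 0.72 for liver with forestomach and 0.75 for lung with forestomach, where the first had 0.90, 0.46 and 0.39. The third probe, the dimmest, ranked the 4 mice less clearly, with places 4, 1, 9 and 3 from the lowest in lung and 2, 3, 5 and 1 in liver. Its places in forestomach were 18, 1, 6 and 3. Whether the probes also bind transcripts of similar sequence elsewhere in the genome was not tested.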

How the data were processed

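RNA of lung, liver and forestomach was hybridised on 2-colour Agilent 8x60K arrays, 1 per mouse and tissue, and each file held 62976 spots. Per the file headers, the deposited scanner files hold the median intensity of each spot and its background from Feature Extraction 10.7.3.1, with flags as other values of 0 or 1. The authors deposited a table of log2 ratios, Cy5 over Cy3, which a LOWESS fit per array gave with no background subtracted. It correlated at 0.977 to 0.998 with a loess computed here (slope 0.952 to 0.996). No dyes were swapped.

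The 3671 control spots were left out, and 59305 spots averaged to 55681 probes, of which 26413 (47.4%) were named, by RefSeq accession. Probes with Cy5 well above background on at least 3 arrays of a tissue and no non-uniform spot were tested in limma 3.58.1 (R 4.3.3), 31448 in lung, 24692 in liver, 27491 in forestomach and 33629 over all. The study's methods name MAANOVA, for which limma stood in. Genes of the lists were to be named when called, of which the text gives examples, or as the 2 of smallest p per tissue at D3, and the 3 genes most like Hspa1a per tissue. The fit was tested on simulated data. The members and lists were chosen with earlier results of these data known. Same-numbered samples are tissues of 1 animal per the labels; over all probes their deviations correlated at 0.04 to 0.27 between lung and liver, −0.17 to 0.25 between liver and forestomach and −0.09 to 0.13 between lung and forestomach. The number of arrays limits the precision. Alternatives covered normalisation, background, filter, probe rule, slide, array column, each mouse in turn and the mice or samples that stood apart.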

Additional observations from a re-analysis of the deposited data

Results flagged for a closer look

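Each member was checked in each dose group of 4 to 10 mice for a mouse whose distance from its nearest neighbour took up most of the group's range, by Dixon's test at the 95% level. Of 99 such groups 24 had one, where chance gives about 1 in 20 and 5.85% of the groups over all probes tested had one. The members share arrays and vary together, so the 24 are not independent. Mouse 7 accounted for 13 of them (8 in lung, 4 in liver and 1 in forestomach) and mouse 2 for 6 (5 in lung and 1 in liver).

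In lung mouse 7 stood above its group for Hspa1a (2.74), Hspa8 (1.41), Hsph1 (1.46), Dnajb1 (0.29), Hsp90aa1 (1.51), Hspb1 (3.28), Hspd1 (−0.32) and Hspa5 (1.01). Mouse 2 did so for Hspa1a (3.103), Hspa8 (1.16), Hsph1 (1.11), Hsp90aa1 (1.15) and Hspa5 (0.63). In liver mouse 7 did so for Hspa1a (2.48), Hspa8 (0.76), Hsph1 (0.82) and Dnajb1 (−0.26), and mouse 2 for Hspa1a (1.23). In forestomach mouse 7 did so for Hsp90aa1 (0.26). All of these are log2 ratios of sample over reference.

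The remaining 5 were single values of other mice. Hspa8 was low in the lung of mouse 16 (−0.16), Dnajb1 was high in the lung of mouse 19 (0.33) and low in the forestomach of mouse 12 (0.15), Hspb1 was high in the liver of mouse 20 (0.068), and Hspe1 was low in the liver of mouse 10 (−0.70).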

How the results depend on the processing

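The count of members called stayed at 0 for every dose comparison, dose trend and difference between tissues at D3 under all alternatives run, and when each mouse was left out in turn. Between vehicle tissues the counts with 1 mouse left out were 6 to 7 for liver against lung, 3 to 5 for forestomach against lung and 6 to 8 for forestomach against liver. Median centring gave 2, 7 and 3 in place of 6, 4 and 7.

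No D3 difference of a member was called, so the changes of sign concern values near their error. With the array column as a covariate, which follows dose, the sign turned in lung for Hspb1 (−1.01) and Hspa5 (0.037), in liver for Hspe1 (0.33) and in forestomach for Hspa1a (−1.29), Hspa8 (−0.39), Dnajb1 (−0.24), Hsp90aa1 (−0.16), Hspe1 (−0.19) and Hspa5 (−0.79). With median centring it turned in lung for Dnajb1 (0.092), Hspe1 (0.18), Hspd1 (0.16) and Hspa5 (0.17), in liver for Hspa8 (−0.00880), Hsp90aa1 (−0.031) and Hspd1 (−0.082) and in forestomach for Hsph1 (0.44). The slide as a block turned Hspa5 in lung (0.0087) and Hspa1a in forestomach (−0.058), normexp turned Hspd1 in liver (−0.035), and own loess turned Hspd1 in liver (−0.061) and Hspa5 in forestomach (−0.012). Without mice 17 and 19 Hspb1 turned in lung (−0.17). Without mice 2 and 7 Hspe1 (0.075), Hspd1 (0.083) and Hspa5 (0.052) turned in lung, Hspd1 in liver (−0.000353) and Hsph1 in forestomach (0.077).

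With each mouse left out in turn the sign turned at least once within these ranges: in lung Hspe1 (−0.23 to 0.083), Hspd1 (−0.14 to 0.083) and Hspa5 (−0.11 to 0.052), in liver Hspa8 (−0.0025 to 0.34), Hsph1 (−0.016 to 0.45), Hsp90aa1 (−0.087 to 0.28), Hspe1 (−0.20 to 0.17) and Hspd1 (−0.0090 to 0.038), and in forestomach Hspa1a (−0.21 to 0.74), Hsph1 (−0.33 to 0.077), Dnajb1 (−0.014 to 0.27) and Hspa5 (−0.15 to 0.29).

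Among vehicle tissue differences median centring turned Hspa5 in liver against lung (−0.20), Hsph1 (−2.09), Dnajb1 (−1.69), Hspb1 (−0.74), Hspe1 (−1.64) and Hspd1 (−1.52) in forestomach against lung, and Hsph1 (−0.55), Dnajb1 (−0.28) and Hsp90aa1 (−0.60) in forestomach against liver. Hspa8 in forestomach against liver, which was not called, turned with the mean of all probes (0.17), normexp (0.43) and own loess (0.42), and ranged from −0.27 to 0.052 with 1 mouse left out. The call of Hspa5 in forestomach against lung was lost with own loess (adjusted p = 0.118), normexp (0.109) and no filter (0.073), with the mean of all probes (0.0502), with only the vehicle arrays (0.084) and without any of mice 1, 3, 4, 5, 6, 8, 10, 11, 12, 13, 15, 17, 18 or 20, and that of Hspe1 in forestomach against liver without mouse 4 (0.082). With the mouse as a replicate block the counts of members called were 7, 5 and 8, and the counts of 0 for the D3 differences between tissues did not change.

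Among correlations between tissues the sign turned without mice 2 and 7 for Hspa1a (−0.18) and Hspb1 (−0.024) in lung with liver, Hspa1a (−0.19) and Dnajb1 (−0.53) in liver with forestomach, and Dnajb1 (−0.067) and Hspa5 (−0.27) in lung with forestomach. Without the 2 mice farthest from the median, again mice 2 and 7 here but with deviations still taken from group means that include them, it turned for Dnajb1 in liver with forestomach (−0.37) and Hspa5 in lung with forestomach (−0.17). Within slides it turned for Hsp90aa1 (−0.026) and Hspb1 (0.10) in liver with forestomach and for Hspa1a (−0.077), Dnajb1 (−0.19) and Hspe1 (−0.0049) in lung with forestomach. The cause of these changes was not tested.

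Signal over background limits Hspa1a in liver and, on 2 vehicle arrays, in forestomach.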
